A study of Mus musculus with 6 samples.

Results

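The 3 erythroid microRNAs (miRNAs) miR-144, miR-451 and miR-486 were followed across small-RNA libraries from the left ventricle of cyclosporin-treated mice. They were taken by exact name (mmu-miR-144, mmu-miR-451 and mmu-miR-486) from both genotype tables and are 3 of the 698 mature miRNAs listed. The libraries came from 3 wild-type mice (WT) and 3 mice heterozygous for the R719W mutation in Myh6 (R719W, labelled aMHC719/+), the gene of the α-myosin heavy chain, in which such mutations serve as a model of hypertrophic cardiomyopathy. Both genotypes were on cyclosporin, a drug that blocks calcineurin signalling, for 3 weeks, and no untreated mice were analysed here. The labels used here state neither strain, sex nor age. Each title calls its library a biological replicate, and the labels say nothing further on the source animals.

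Heart tissue contains blood, and red cells carry a small, characteristic set of miRNAs. miR-144 and miR-451 are made from a shared primary transcript that the transcription factor GATA1 switches on during red cell maturation. miR-451 is unusual among miRNAs because its hairpin is cut by Argonaute 2 and not by Dicer, and it restrains the adaptor protein Ywhaz in maturing red cells. miR-486 lies within Ank1, the gene of ankyrin-1, a protein of the red cell membrane skeleton. It is abundant in red cells but is also made in striated muscle, so its reads in a ventricle have more than one possible source.

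The mature sequences are shown because the 3 miRNAs are counted together as a blood signal although their sequences are unrelated. They are written 5′ to 3′ as listed in the deposited tables, with U for T, and capitals mark the seed, bases 2 to 8, which directs target recognition.
miR-144: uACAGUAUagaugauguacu
miR-451: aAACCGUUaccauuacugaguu
miR-486: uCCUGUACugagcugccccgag
The seeds differ from each other, and 0 of the other listed miRNAs shared any of them. miR-101a and miR-101b shared bases 2 to 7 with miR-144. The nearest listed sequence was 7 edits away for miR-144 and 8 edits away for miR-451 and for miR-486. The G and C content was 30.0% in miR-144, 36.4% in miR-451 and 63.6% in miR-486.

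In the mouse genome (GRCm38, GENCODE M21) the miR-144 hairpin lies on chromosome 11 at 78073005 to 78073070 (plus strand) and that of miR-451 at 78073170 to 78073241 on the same strand, with 99 bases between them. Neither overlaps an annotated gene other than miRNAs, and the nearest protein-coding gene is Eral1. The miR-486 hairpin lies on chromosome 8 at 23142555 to 23142682 (plus strand). It overlaps Ank1 on the same strand without touching an annotated exon, which places it in an intron, and the noncoding gene Gm15816 on the other strand. The hairpins of the chromosome 11 pair (RefSeq, GRCm38.p6) are shown because they differ in where the counted molecule sits, with the mature miRNA in capitals.
miR-144 hairpin: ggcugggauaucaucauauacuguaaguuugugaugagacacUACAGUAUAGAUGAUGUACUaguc
miR-451 hairpin: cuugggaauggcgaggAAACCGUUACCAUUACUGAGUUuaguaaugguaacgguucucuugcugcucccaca
In the minimum free energy fold (RNAfold 2.7.2), the mature miR-144 occupied bases 43 to 62, all on the 3′ side of the loop, with 19 of its 20 bases paired. The mature miR-451 occupied bases 17 to 38 and ran from the 5′ side of the stem through the terminal loop, with 17 bases paired and 4 in the loop.

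Total reads on miRNAs ranged from 765425 to 1192020 per library. Levels are TMM-normalised CPM, the CPM scale after adjustment by edgeR, with scaling factors from 0.83 to 1.22. The 4 heart muscle miRNAs used to check the tissue (miR-1, miR-133a, miR-208a and miR-499) took 56.1% to 65.3% of the reads in WT and 48.6% to 58.5% in R719W. R719W replicate 1 had the highest level of its genotype for each of the 3 erythroid miRNAs, and the results for these 3 and for the related lists are given with and without it.

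miR-144 was a low-level miRNA in every ventricle. It had 25, 23 and 19 reads in WT replicates 1, 2 and 3, and 20, 12 and 15 reads in R719W replicates 1, 2 and 3. Scaled, these were 33.8, 28.1 and 19.2 CPM in WT and 20.4, 9.60 and 14.2 CPM in R719W. On this scale the genotypes overlapped only because R719W replicate 1 lay just above WT replicate 3. On the deposited CPM, R719W replicate 3 (17.3) was also above WT replicate 3 (15.9). The scaled mean was 27.0 ± 7.37 CPM in WT and 14.7 ± 5.41 CPM in R719W (SD, n = 3).

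miR-451 stood at about the same level as its cluster partner. It had 26, 16 and 20 reads in WT replicates 1, 2 and 3, and 22, 22 and 14 reads in R719W replicates 1, 2 and 3. Scaled, these were 35.2, 19.5 and 20.2 CPM in WT and 22.4, 17.6 and 13.2 CPM in R719W. WT replicate 1 was well above the other 5 libraries, and the remaining WT libraries lay below R719W replicate 1. The mean was 25.0 ± 8.86 CPM in WT and 17.7 ± 4.60 CPM in R719W (SD, n = 3).

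miR-486 was far more abundant. It had 2149, 2668 and 1907 reads in WT replicates 1, 2 and 3, and 2481, 1667 and 1471 reads in R719W replicates 1, 2 and 3. Scaled, these were 2910, 3255 and 1928 CPM in WT and 2528, 1334 and 1388 CPM in R719W. As for miR-144, R719W replicate 1 was above WT replicate 3 on this scale, and the other R719W libraries were below every WT library. On the deposited CPM, R719W replicate 3 (1699) was also above WT replicate 3 (1600). The scaled mean of miR-486 was 2698 ± 689 CPM in WT and 1750 ± 674 CPM in R719W (SD, n = 3). By reads it ranked from 29th to 38th among the listed miRNAs, against 133rd to 183rd for miR-144 and 132nd to 172nd for miR-451.

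**Figure D1:**
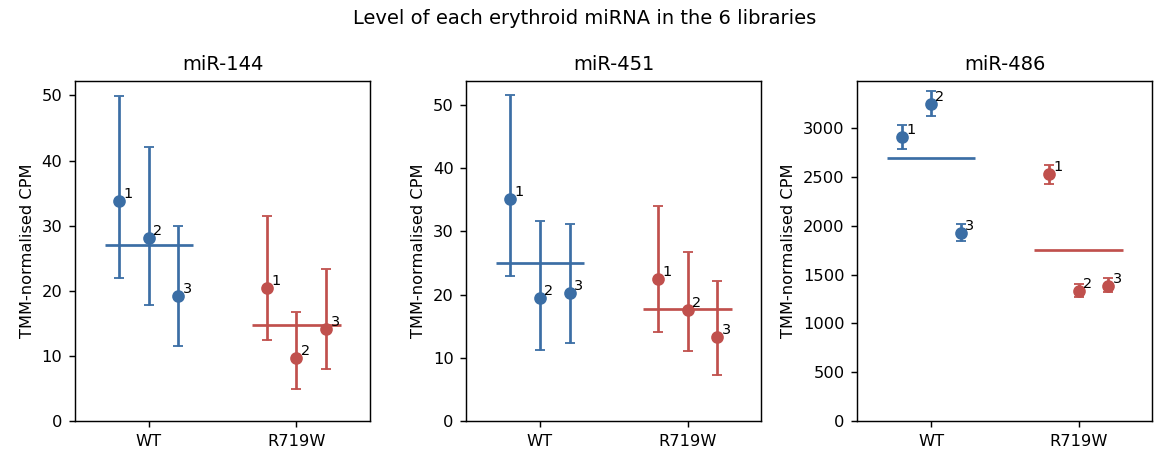
Level of miR-144, miR-451 and miR-486 (TMM-normalised CPM, linear axes from 0) in each library, numbered by replicate, with WT in blue and R719W in red. Bars are exact 95% Poisson intervals of the reads and horizontal lines are genotype means. The intervals of miR-144 and miR-451 overlap widely between genotypes, while those of miR-486 are narrow and R719W replicate 1, at 2528 CPM, lies above WT replicate 3, at 1928 CPM.

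The precision of the 3 miRNAs differed with their reads. For miR-486, the coefficient of variation over the 6 libraries was 36.0%, against 2.20% from counting alone at its mean number of reads. For miR-144 it was 42.6% against 22.9%, and for miR-451 34.9% against 22.4%, so counting error was a larger part of the spread for these than for miR-486. The spread over the 6 libraries includes the difference between genotypes. Counting intervals cover counting error only, since the reads carry no molecular identifiers. In the SD of log2 levels within genotypes, miR-486 ranked 36th, miR-144 45th and miR-451 57th highest of the 181 miRNAs tested.

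The comparison of genotypes asked whether the ventricles of R719W mice carried less of this red cell set. None of the 3 passed an adjusted p of 0.05 in the quasi-likelihood test of edgeR, adjusted by Benjamini-Hochberg over the 181 miRNAs that had enough reads, of which 36 (19.9%) were called. DESeq2 also called 0 of the 3, and at an unadjusted p below 0.05 there were 1 by edgeR (miR-144) and 2 by DESeq2 (miR-144 and miR-486). All 3 had lower means in R719W. The log2 fold change by edgeR was −0.88 ± 0.36 (SE) for miR-144 (adjusted p = 0.102), −0.62 ± 0.29 for miR-486 (adjusted p = 0.144) and −0.48 ± 0.34 for miR-451 (adjusted p = 0.292). The median log2 fold change of all miRNAs tested was 0.10. Each of the 3 overlapped between genotypes, while 40.9% of the miRNAs tested had no overlap. In bulk tissue, fewer red cells and less miRNA per cell cannot be told apart.

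On the TMM scale, the calls of 2 of the 3 turned on R719W replicate 1. This library was singled out for having the highest R719W levels of these same 3. Leaving it out therefore lowers their R719W means by construction, and the calls made without it are not separate support for a fall. Without R719W replicate 1, miR-486 fell in R719W by 1.03 on the log2 scale (edgeR adjusted p = 4.15e-04) and miR-144 by 1.21 (edgeR adjusted p = 0.0111). In the same fit miR-451, at −0.69, did not pass (edgeR adjusted p = 0.136). That fit called 56 of 183 miRNAs tested (32 higher and 24 lower in R719W), against 36 of 181 with all 6 libraries. In the other 5 fits that each left out 1 library, none of the 3 was called, and adjusted p ranged from 0.133 to 0.637. The scaled levels of R719W replicate 1 were 1.82 times those of R719W replicate 3 for miR-486, 1.44 times for miR-144 and 1.70 times for miR-451. Against R719W replicate 2, they were 1.90 times for miR-486, 2.12 times for miR-144 and 1.27 times for miR-451. In every alternative without a blood gauge that tested them, the log2 fold changes of the 3 were below 0 (miR-144 and miR-451 had too few reads for the filter of 100 reads in 3 libraries).

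**Figure D2:**
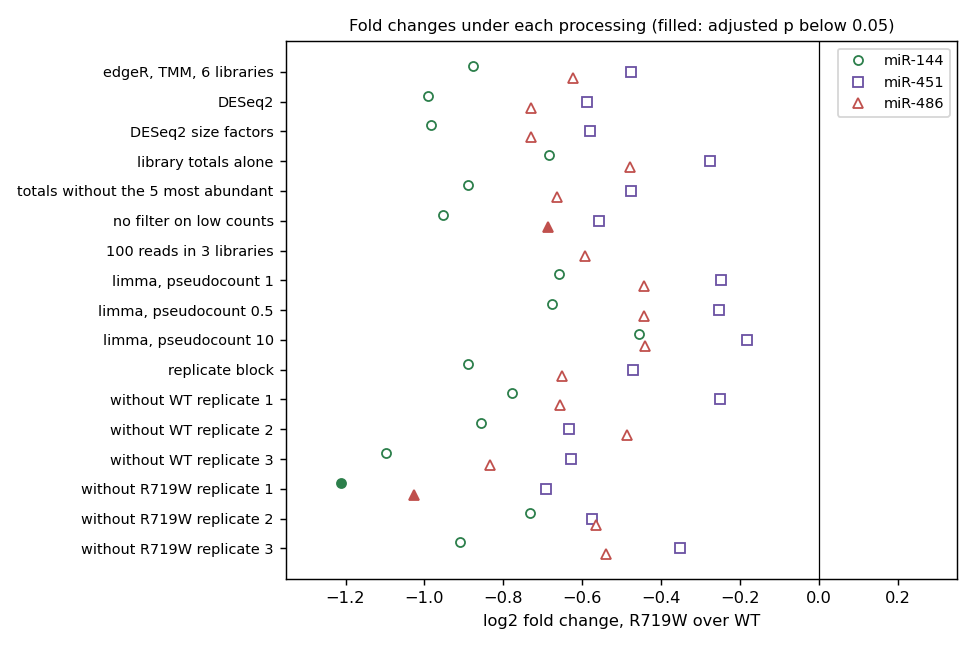
Log2 fold change of miR-144 (circles), miR-451 (squares) and miR-486 (triangles), R719W over WT, under each processing tried other than the fits with a blood gauge as covariate, with filled symbols where the adjusted p was below 0.05. All points shown lie below 0, and the filled ones are miR-144 and miR-486 without R719W replicate 1 and miR-486 without a filter on low counts.

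As a share of all miRNA reads, which needs no scaling factor, the 3 together took 0.269%, 0.354% and 0.163% in WT replicates 1, 2 and 3. They took 0.244%, 0.146% and 0.173% in R719W replicates 1, 2 and 3. WT replicate 2 was the highest of the 6 libraries and R719W replicate 2 the lowest, but WT replicate 3 lay within the R719W range. The means were 0.262% ± 0.0954 and 0.188% ± 0.0509 (SD, n = 3; exact permutation test, two-sided, p = 0.3, with 0.1 the smallest p that 3 against 3 libraries allow). Without R719W replicate 1, the difference of R719W from WT was −0.103 percentage points (exact permutation test, two-sided, p = 0.4). Exact Clopper-Pearson 95% intervals were narrow, for example 0.156% to 0.171% in WT replicate 3 and 0.139% to 0.153% in R719W replicate 2. The share was almost wholly miR-486, which supplied 97.7% to 98.6% of the reads of the 3. miR-144 and miR-451 together took 0.00624%, 0.00510% and 0.00327% in WT replicates 1, 2 and 3 and 0.00407%, 0.00291% and 0.00335% in R719W replicates 1, 2 and 3.

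Ratios within a library depend neither on depth nor on scaling. There were 82.7, 167 and 95.4 reads of miR-486 for each read of miR-451 in WT replicates 1, 2 and 3, and 113, 75.8 and 105.1 in R719W replicates 1, 2 and 3. WT replicate 2 had the highest ratio, with an exact 95% interval from 102 to 292. R719W replicate 2 had the lowest, with an interval from 49.9 to 121, which overlapped the former. Overlap of intervals does not test a difference, and single libraries were not tested against each other. The mean log2 ratio was 6.78 ± 0.54 for WT and 6.59 ± 0.31 for R719W (SD, n = 3; exact permutation test, two-sided, p = 0.8). For miR-451 over miR-144, the ratio was 1.04, 0.696 and 1.05 in WT replicates 1, 2 and 3, and 1.10, 1.83 and 0.933 in R719W replicates 1, 2 and 3. The interval of this ratio held 1 in each library, and the mean log2 ratio was −0.13 ± 0.34 for WT and 0.30 ± 0.51 for R719W (SD, n = 3; exact permutation test, two-sided, p = 0.4). Ligation and amplification can favour some sequences, so such ratios need not equal ratios of molecules.

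**Figure D3:**
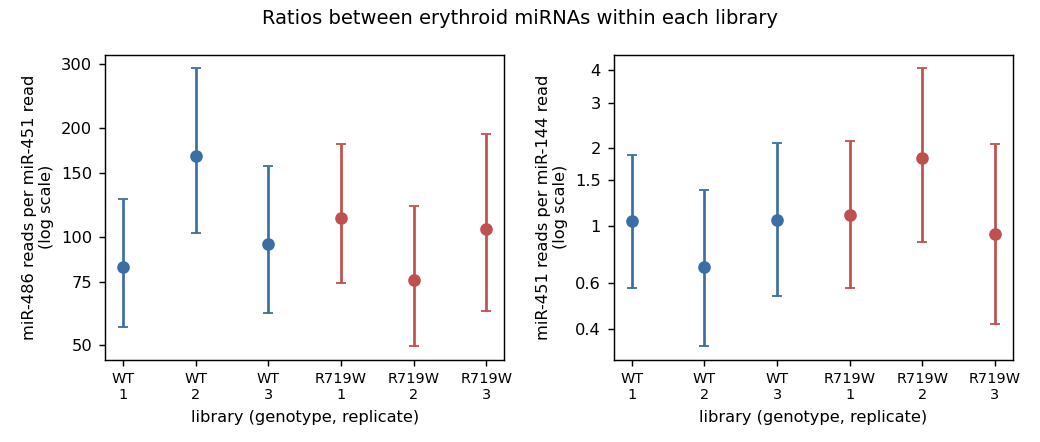
Reads of miR-486 per read of miR-451 (left) and reads of miR-451 per read of miR-144 (right) in each library, on log axes, with exact 95% intervals from the paired counts, WT in blue and R719W in red. The left ratio lies between 75.8 and 167 and the right between 0.696 and 1.83, and the genotypes overlap in both.

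Across the 6 libraries, miR-144 and miR-486 varied together although their genes lie on different chromosomes. Pearson's r of their log2 levels was 0.93 (exact permutation p = 0.0111, adjusted over 3 pairs p = 0.0333) and Spearman's rho was 0.94 (exact permutation p = 0.0167, adjusted p = 0.05). It was 0.97 without the 2 libraries farthest from the median of miR-144, and 0.91 on the deposited CPM. The cluster partners miR-144 and miR-451 gave r = 0.73 (exact permutation p = 0.0944, adjusted p = 0.1) and rho = 0.77 (exact permutation p = 0.103, adjusted p = 0.154), with r = 0.68 without the 2 farthest libraries. miR-451 and miR-486 gave r = 0.69 (exact permutation p = 0.1, adjusted p = 0.1) and rho = 0.60 (exact permutation p = 0.242, adjusted p = 0.242), with r = 0.59 without the 2 farthest libraries. The 6 libraries include both genotypes, whose means differ in the same direction for all 3, and 3 libraries per genotype are too few for a value within each.

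Of 15 other miRNAs known to be abundant in red cells or reticulocytes, 13 had reads and 10 were tested. In R719W, 1 of the 10 fell (7.18% of all miRNAs tested fell), 0 rose (12.7% of all rose) and 9 did not pass by edgeR. The median log2 fold change of the 10 was −0.09. The member that fell was miR-185, from 799 ± 123 CPM to 392 ± 32.6 CPM (SD, n = 3), with an edgeR log2 fold change of −1.03 ± 0.20 (SE) and an adjusted p of 0.0125. It was no longer called by edgeR with library totals alone, without WT replicate 1, WT replicate 3 or R719W replicate 3 (edgeR adjusted p = 0.0678, 0.0817 and 0.0672), or by limma at any of 3 pseudocounts. Without R719W replicate 1, miR-185 fell and miR-210, known to rise in low oxygen, rose by edgeR (log2 fold change 0.67, adjusted p = 0.0173). Of the 183 miRNAs tested in that fit, 24 fell and 32 rose. The most abundant of the list was miR-16, expressed in most cell types, which stood at 5273 ± 442 CPM in WT and 5919 ± 1435 CPM in R719W (SD, n = 3), a log2 fold change of 0.17 ± 0.21 (SE). miR-92a, another red cell miRNA, had only 1 to 4 reads per library and was not tested, and miR-363 and miR-96 had 0 reads in all 6, which allows up to 2.40 to 4.06 CPM depending on the library (3 reads). As a group the 15 took 0.770% ± 0.0890 of WT reads and 0.893% ± 0.129 of R719W reads (SD, n = 3; exact permutation test, two-sided, p = 0.3). miR-16 supplied 60.1% to 79.7% of this sum, and without it, an alternative chosen after seeing the data, the shares were 0.276% ± 0.00732 of WT reads and 0.259% ± 0.0713 of R719W reads (exact permutation test, two-sided, p = 1.0), with the order of the means turned round.

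Blood also brings white cells and platelets, for which 7 miRNAs were examined. All 7 had reads and 6 were tested, of which 2 fell by edgeR, miR-150 and miR-342-3p, both lymphocyte miRNAs (7.18% of all miRNAs tested fell), and 0 rose (12.7% of all rose). The call of miR-150 was lost in 3 and that of miR-342-3p in 4 of the 6 fits without a library. That of miR-150 was also lost with library totals alone, totals without the 5 most abundant miRNAs, the replicate block and limma at each pseudocount, and that of miR-342-3p with limma at a pseudocount of 1 or 0.5. Without R719W replicate 1, miR-155, a miRNA of activated lymphocytes, fell as well (log2 fold change −0.73, edgeR adjusted p = 0.0295). In that fit 24 of the 183 miRNAs tested fell. miR-223, known from neutrophils and platelets, stood at 79.1 ± 5.18 CPM in WT and 116 ± 26.9 CPM in R719W (SD, n = 3). Its log2 fold change was 0.56 ± 0.23 (SE), with an edgeR adjusted p of 0.102. Every R719W library was above every WT library, and 40.9% of all miRNAs tested had no overlap between genotypes. The log2 fold change of miR-223 was 0.24 without R719W replicate 2 (edgeR adjusted p = 0.399). It was 0.49 to 0.64 without each of the other libraries. The summed share of the 7 was 0.0753% to 0.112% of reads in WT and 0.120% to 0.142% in R719W, with R719W replicate 1 the highest library (exact permutation test, two-sided, p = 0.1, the smallest these libraries allow). That sum was mostly miR-142-3p, a miRNA of all blood cell lineages whose log2 fold change of 0.64 ± 0.21 (SE) missed the threshold (edgeR adjusted p = 0.0625), which supplied 55.2% to 74.6% of it. Without miR-142-3p, an alternative chosen after seeing the data, the other 6 took 0.0337% to 0.0439% in WT and 0.0362% to 0.0395% in R719W, with overlap (exact permutation test, two-sided, p = 0.8). The part of white cell content in the erythroid values was not tested.

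Among the heart muscle miRNAs, all 4 had negative log2 fold changes relative to TMM (3 of the 4 with library totals alone and with limma), as did 82 of the 181 miRNAs tested. Of the 4, 1 fell by edgeR (7.18% of all miRNAs tested fell): miR-499, made from an intron of Myh7b (log2 fold change −1.14, SE 0.20, adjusted p = 0.00808), and its call was lost without WT replicate 1 or WT replicate 3 (edgeR adjusted p = 0.0558 and 0.0669). The log2 fold change of miR-486 (−0.62) lay between those of miR-499 and miR-208a (−0.58, not called). Those of miR-1 (−0.38) and miR-133a (−0.15) were smaller in size. The parts of muscle and of red cells in the reads of miR-486 were not tested.

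**Figure D4:**
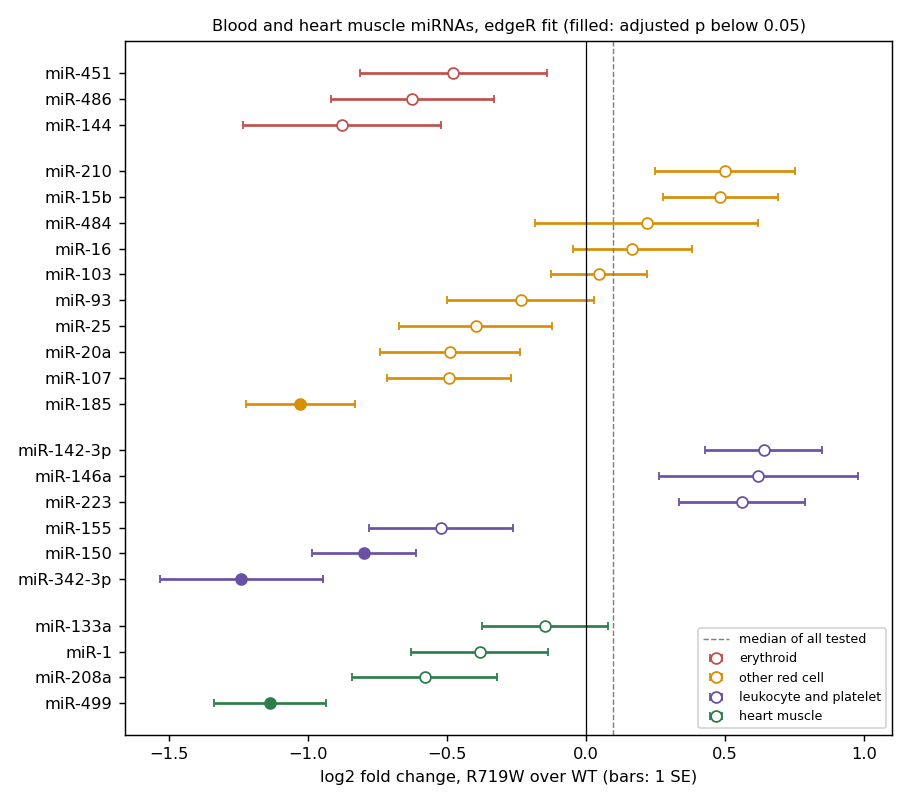
Log2 fold change with 1 SE, R719W over WT, of the tested erythroid, other red cell, leukocyte and platelet, and heart muscle miRNAs in the edgeR fit, with filled symbols where the adjusted p was below 0.05 and a dashed line at the median of all miRNAs tested (0.10). The 3 erythroid points are open and lie between −0.88 and −0.48, while the other red cell miRNAs lie on both sides of 0.

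The miRNAs whose levels followed the mean log2 level of the 3 most closely over the 6 libraries were miR-669a (Pearson's r 0.94), miR-126-5p (0.93), miR-30a* (0.92), miR-339-5p (0.88) and miR-805 (0.87). The most opposite were miR-27b (−0.93), miR-199b* (−0.93) and miR-411 (−0.92). These values describe 6 libraries that share their scaling factors, were picked from 178 miRNAs and carry no test. None of the 5 is on the red cell list above, of which only 10 were tested. Among these 10, miR-185 had the highest r (0.70, rank 17 of 178), then miR-107 (0.43), miR-16 (0.32) and miR-20a (0.06). The values of miR-25 (−0.12), miR-93 (−0.14), miR-484 (−0.57), miR-103 (−0.75), miR-210 (−0.86) and miR-15b (−0.87) were negative. miR-126-5p comes from an endothelial gene, Egfl7. Over both genotypes, r includes the difference between them: the 5 had negative log2 fold changes and the 3 opposite ones positive.

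As an intended gauge of blood content per library, the mean log2 level of the 3 ranged from 6.60 to 7.30 in WT and from 6.07 to 6.80 in R719W. Whether it follows blood content was not tested, and miR-486 is also made in striated muscle. The summed shares of the other red cell list (0.893% against 0.770%) and of the leukocyte and platelet list (0.133% against 0.0927%) had higher means in R719W than in WT. Without miR-16 and miR-142-3p, respectively, these orders turned round. When the mean log2 level of the 3 was added to the edgeR fit, 48 miRNAs were called (26.5% of those tested) in place of 36, with 20 shared, 16 lost and 28 gained. The lost calls with the smallest p were miR-150, miR-411, miR-342-3p, miR-378 and miR-423-5p. Their log2 fold changes without and with the gauge were −0.80 and −0.83 for miR-150, 1.19 and 0.55 for miR-411, −1.24 and −1.02 for miR-342-3p, −0.72 and −0.73 for miR-378, and 1.20 and 1.08 for miR-423-5p, so that of these 5 miR-411 changed the most in size. The gained calls with the smallest p were miR-98, miR-744, miR-30b, miR-24-1* and miR-24-2*. With the mean level of miR-144 and miR-451 alone as the gauge, an alternative chosen after seeing the data, 11 miRNAs were called, of which 10 were among the 36, and miR-185 was not (edgeR adjusted p = 0.0664). The 3 erythroid miRNAs form the gauge, so their own values under it are not a comparison of genotypes: with the level of all 3, miR-451 stood at 0.08 and miR-486 at 0.05 on the log2 scale, both above 0. The gauge was not refitted without R719W replicate 1. miR-214, known from activated fibroblasts, had a log2 fold change of 3.25 without a gauge, 3.53 with the level of all 3 and 3.65 with that of miR-144 and miR-451, and was called each time (edgeR adjusted p = 7.38e-05, 8.04e-07 and 8.33e-05). The gauge differs between genotypes in its mean and leaves 3 residual degrees of freedom, so its part in any call and that of genotype cannot be told apart in full.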

How the data were processed

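Per the labels' protocols, total RNA went through a miRNA isolation kit into multiplexed miRNA libraries. The sources used here do not give the aligner, miRNA release, genome build or rules for assigning reads. The authors deposited 1 table per genotype with read counts and a normalized value for 698 miRNAs. Per the file headers the counts are reads, and the authors' normalized value equals CPM within a relative gap of 4.61e-15. Columns were matched to samples by the barcode in each description. The tests ran in edgeR 4.0.16 (R 4.3.3): filterByExpr on genotype (minimum count 10, total 15) kept 181 miRNAs, which hold at least 99.9% of each library's reads, followed by TMM scaling and the two-sided quasi-likelihood test (glmQLFTest), adjusted by Benjamini-Hochberg, with calls below 0.05. Log2 levels used a prior count of 2. SEs were obtained by dividing the size of a log2 fold change by the square root of F. SDs are over 3 libraries, and nothing in the labels shows that spread to be other than that between these samples. Shares and ratios were compared by exact permutation tests (SciPy 1.17.1). The members, lists and tests were chosen with earlier results of these data known. The miRNAs named were the 3 members, entries of 3 other fixed lists, the 5 most and 3 least alike by Pearson's r, and up to 5 calls lost or gained with the gauge. In addition, miR-101a and miR-101b were named for shared bases. miR-214 belongs to none of these groups and was named with its values known. Alternatives were DESeq2 1.42.0, other scalings and filters, limma 3.58.1 on log2 of the deposited CPM plus 0.5, 1 or 10, a replicate block and leaving out each library. The fit was tested on simulated data.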

Additional observations from a re-analysis of the deposited data

How the results depend on the processing

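The number of called miRNAs, 36 in the edgeR fit, was 20 with totals without the 5 most abundant miRNAs, 22 with a filter of 100 reads in 3 libraries (101 tested, miR-144 and miR-451 not among them), 11 with miR-144 and miR-451 as covariate, and 4 to 56 leaving out 1 library. It was 4, 20 and 4 without WT replicates 1, 2 and 3, and 56, 40 and 7 without R719W replicates 1, 2 and 3. The split of higher to lower calls, 23 to 13 with TMM, was 12 to 15 with DESeq2's size factors, 12 to 16 with DESeq2, 34 to 3 with library totals alone, and 28 to 2 with limma (pseudocount 1). The median log2 fold change of all miRNAs shifted by −0.11, −0.11, 0.22 and 0.20 under these. The log2 fold change ranged from −1.21 to −0.73 for miR-144, from −0.69 to −0.25 for miR-451 and from −1.03 to −0.49 for miR-486 leaving out 1 library. The size of the falls also depended on the scaling. For miR-144, miR-451 and miR-486 in turn, it was −0.69, −0.28 and −0.48 with library totals alone. It was −0.46, −0.18 and −0.44 with limma at a pseudocount of 10, and −0.99, −0.59 and −0.73 with DESeq2, with none called in these. miR-486 was called without a filter on low counts (−0.69, edgeR adjusted p = 0.0358), where miR-144 was at an adjusted p of 0.0515. The causes were not tested. The difference in the log2 ratio of miR-486 to miR-451 ranged from −0.39 to 0.12 leaving out 1 library, and it turned positive without WT replicate 2. That of miR-451 to miR-144 ranged from 0.15 to 0.64, and the difference in the share of reads from −0.124 to −0.0284 percentage points. The difference in share turned from 0.0408 to −0.000677 percentage points for the leukocyte and platelet list without miR-142-3p, and from 0.124 to −0.0172 for the other red cell list without miR-16. Of 92 alternative values, 78 were labelled the same. Fold changes were labelled by direction and side of the threshold, and shares and ratios by direction alone. Counts were labelled by staying within 1.5 times, whatever the calls. The fit with the level of all 3 as covariate thus counted as the same, with 48 called and 20 shared with the 36. Deviations from the genotype means had correlations of −0.19, −0.39 and 0.01 between libraries of the same replicate number. These values carry no test, and a batch shared by replicate number was not tested. With the replicate number as a block, edgeR called 30 miRNAs, and miR-144, miR-451 and miR-486 had log2 fold changes of −0.89, −0.47 and −0.65, none called (adjusted p = 0.0756, 0.341 and 0.0607). At 12 to 26 reads per library, depth limits miR-144 and miR-451, and a count of 0 would allow 2.40 to 4.06 CPM (3 reads).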
